A study of Homo sapiens with 9 samples.

Results

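The 44 genes described here carry out the assembly, transfer and trimming of asparagine-linked glycans (N-glycans). They were chosen by name, as the enzymes and subunits of this pathway, and found by matching the Ensembl identifiers of the count data to GENCODE symbols. They were 44 of 58395 gene identifiers, and 44 of the 16761 genes that passed the low-count filter of edgeR and entered the tests. The genes fall into 8 steps, from the recycling of the lipid carrier to the branching of the finished glycan. No measured value was used to choose them, but the list was drawn up with earlier results of these data known.

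RNA came from MDA-MB-231 (MDAMB231 in the labels), a human triple-negative breast cancer cell line, 96 h after reverse transfection of siRNA. There were 3 groups of 3 libraries: a non-targeting control siRNA (siNC) and individual siRNAs against the zinc transporter ZIP7 (gene SLC39A7), here siZIP7_1 and siZIP7_2 (ZIP7 siRNA_1 and ZIP7 siRNA_2 in the labels). The labels name no other agent, and all groups were grown in DMEM with FBS and penicillin/streptomycin. The cells were transiently transfected pools, so knockdown rather than full loss of ZIP7 was compared, and the purpose was to describe the response of the transcriptome to it. The labels do not say that the libraries of a group came from separate cultures, so the p-values measure the spread between these libraries, which may be technical.

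N-glycosylation starts on the membrane of the endoplasmic reticulum (ER). Sugars are added one by one to the lipid dolichol pyrophosphate, first on the cytosolic face and, after the oligosaccharide is flipped, on the luminal face, where dolichol-phosphate-mannose and dolichol-phosphate-glucose are the donors. The oligosaccharyltransferase complex then moves the finished oligosaccharide onto asparagines of new proteins, ER glucosidases and mannosidases trim it during protein folding, and Golgi enzymes trim it further and rebuild it with branches, fucose and galactose.

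The libraries held 24153785 to 30454419 reads on genes. Levels are given as CPM, read counts scaled to a common library size after TMM normalization, with the libraries of a group in the order of their replicate numbers. SLC39A7, the gene targeted by both siRNAs, was at 321, 343 and 322 CPM in the siNC libraries, 35.4, 32.9 and 38.6 CPM in siZIP7_1 and 20.5, 19.5 and 17.6 CPM in siZIP7_2. All siZIP7 libraries lay below all siNC libraries, with a log2 fold change (± its standard error) of -3.20 ± 0.058 with siZIP7_1 and -4.10 ± 0.063 with siZIP7_2 (edgeR, adjusted p = 7.38e-27 and 1.16e-28). Within groups, the counts of any pair of libraries gave a mean chi-squared over genes of 2.41 to 6.42 (9 pairs), so no library was a copy of another, and between groups it was 153 to 287 (27 pairs). The share of reads that met no annotated gene moved with the groups, at 7.43 to 8.28% in siNC, 7.802 to 9.62% in siZIP7_1 and 9.99 to 11.5% in siZIP7_2, and its part in the results was not tested. Of the markers of the line, VIM, CD44 and KRT18 were at 5529, 816 and 247 CPM in siNC (means of 3 libraries), and they moved with the siRNAs, to 2687, 465 and 371 CPM in siZIP7_1 and 2896, 1793 and 189 CPM in siZIP7_2. PGR was at 0 CPM in siNC, and the group means of ESR1 reached at most 0.501 CPM, of CDH1 4.18 CPM and of EPCAM 9.68 CPM. ERBB2, which was taken as a low marker of this line, was at 59.3 to 88.04 CPM. In such bulk RNA, fewer cells with a transcript and less of it per cell cannot be told apart.

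The pathway did not move as one block with either siRNA. With siZIP7_1, 14 of the 44 genes rose and 18 fell against siNC (edgeR's quasi-likelihood test, one fit to all 9 libraries, Benjamini-Hochberg adjustment over all 16761 genes, threshold 0.05), and 12 did not pass. Over all genes tested, 34.8% were higher and 35.9% lower in this comparison. The median log2 fold change of the 44 genes was -0.051, beside -0.0069 over all genes tested. With siZIP7_2, 15 rose, 20 fell and 9 did not pass, beside 38.5% higher and 39.3% lower over all genes. Here the median was -0.098, beside -0.0018. With upper-quartile normalization it was 0.0088, beside 0.10 over all genes tested. Without siNC replicate 3 it was -0.046, beside 0.0035. In this test against no change, the counts of the 44 genes lay near the shares over all genes. They include MAN1C1, which passed the low-count filter through the siZIP7 libraries alone and so had to differ. Without it, 13 higher and 18 lower of 43 passed with siZIP7_1 and 14 higher and 20 lower with siZIP7_2. Both comparisons use the same siNC libraries, so they are set side by side and their likeness is not a result. Tested against a 1.2-fold change instead of against no change, 9 genes were higher and 9 lower with siZIP7_1, and 8 higher and 13 lower with siZIP7_2. Over all 16761 genes, this test called 8574 with siZIP7_1 and 10284 with siZIP7_2, in either direction. With each siRNA that is a larger share than of the 44 genes. The calls this lost with siZIP7_1 were those of ALG1, ALG11, ALG5, ALG8, ALG9, B4GALT1, MAGT1, MAN2A2, MOGS, RPN1, RPN2, STT3A, STT3B and TUSC3. With siZIP7_2 they were those of ALG1, ALG11, ALG12, ALG5, DDOST, DOLPP1, DPM2, MAGT1, MAN1A2, MAN2A1, MAN2A2, MGAT2, PRKCSH and RPN2.

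**Figure D1:**
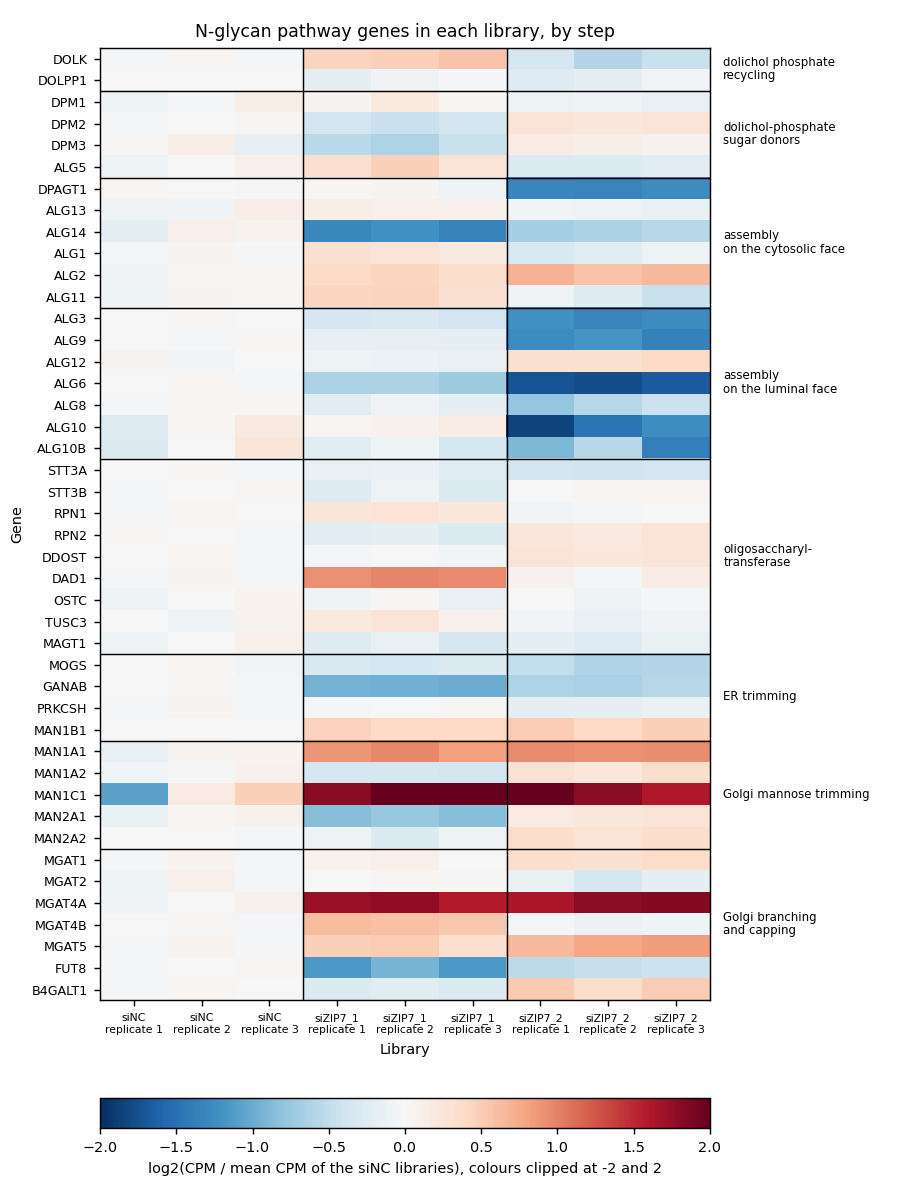
Level of each of the 44 genes (rows, grouped by step) in each of the 9 libraries (columns), as log2 of its CPM over the mean CPM of the 3 siNC libraries; blue is lower and red higher, and colours are clipped at -2 and 2. With siZIP7_2 most rows of assembly on the luminal face are blue, while MAN1A1, MAN1C1 and MGAT4A are red in all 6 siZIP7 libraries.

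**Figure D2:**
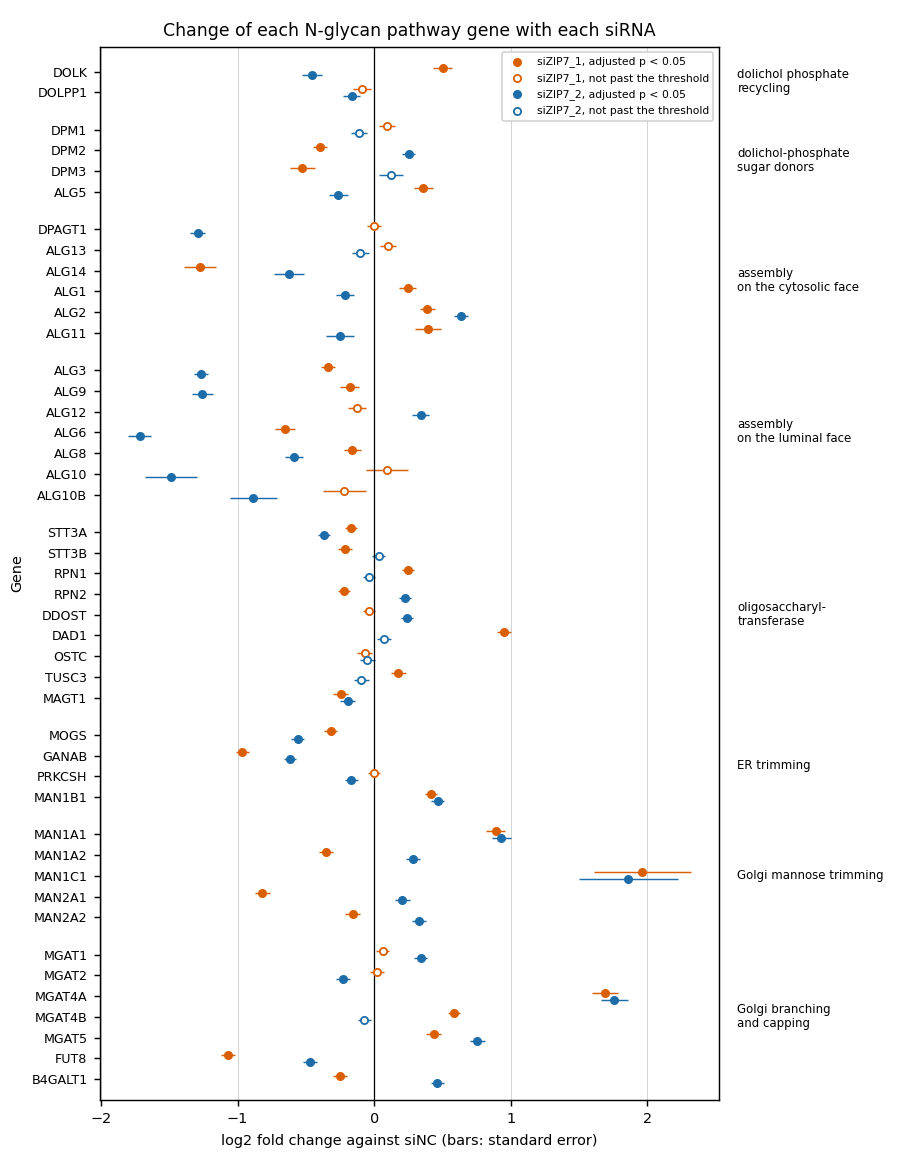
Log2 fold change against siNC (horizontal axis) of each gene (vertical axis, grouped by step) with siZIP7_1 (orange) and siZIP7_2 (blue); bars are standard errors, and filled points are past an adjusted p of 0.05 in edgeR. ALG6 lies lowest, at -1.72 with siZIP7_2, and MAN1C1 highest, at 1.96 with siZIP7_1, with the widest bars; MAN1C1 passed the low-count filter through the siZIP7 libraries alone, so its filled points are no test.

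Among the genes for the lipid carrier and its sugar donors, DOLK, DPM2 and ALG5 changed in opposite directions with the siRNAs. DOLK, the kinase that makes dolichol phosphate from dolichol (chr9:128945530-128947619, minus strand), was at 20.8, 21.7 and 20.9 CPM in the siNC libraries, 28.8, 29.5 and 31.3 CPM in siZIP7_1 and 16.7, 14.01 and 15.5 CPM in siZIP7_2. The siZIP7_1 libraries were all above and the siZIP7_2 libraries all below siNC, with log2 fold changes of 0.50 ± 0.068 with siZIP7_1 and -0.46 ± 0.073 with siZIP7_2 (edgeR, adjusted p = 1.56e-07 and 2.07e-06). DOLPP1, the phosphatase that returns dolichyl pyrophosphate to dolichyl phosphate after transfer, was at 32.3, 32.1 and 32.4 CPM in the siNC libraries, 28.5, 30.8 and 31.6 CPM in siZIP7_1 and 26.98, 28.3 and 31.1 CPM in siZIP7_2. All its siZIP7 libraries lay below the lowest siNC library, but by little: the log2 fold changes were -0.089 ± 0.063 with siZIP7_1 and -0.16 ± 0.064 with siZIP7_2 (edgeR, adjusted p = 0.207 and 0.0206), and of these only siZIP7_2 passed. That call was lost under DESeq2, both other normalizations and without siNC replicate 3 or siZIP7_2 replicate 1 or 2, where the adjusted p was 0.0546 to 0.4003 (edgeR or DESeq2).

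Dolichol-phosphate-mannose synthase consists of the catalytic DPM1 and the membrane subunits DPM2 and DPM3, and ALG5 makes dolichol-phosphate-glucose. DPM1 was at 62.9 ± 5.27 CPM in siNC, 67.2 ± 4.27 in siZIP7_1 and 58.2 ± 1.37 in siZIP7_2 (SD, n = 3) and passed with neither siRNA. It was called lower with siZIP7_2 without a low-count filter (log2 -0.16, edgeR, adjusted p = 0.0115), without siNC replicate 1 (log2 -0.17, adjusted p = 0.0164) and without siZIP7_1 replicate 2 (log2 -0.12, adjusted p = 0.0415). With siZIP7_1 it was called higher without siNC replicate 3 (log2 0.18, edgeR, adjusted p = 0.0126). DPM2 was at 57, 57.3 and 58.6 CPM in the siNC libraries, 44.6, 42.1 and 44.5 CPM in siZIP7_1 and 69.1, 67.1 and 69.8 CPM in siZIP7_2. Its 3 groups did not overlap, with siZIP7_1 lowest and siZIP7_2 highest, at log2 fold changes of -0.40 ± 0.051 with siZIP7_1 and 0.25 ± 0.049 with siZIP7_2 (edgeR, adjusted p = 5.12e-08 and 3.89e-05). DPM3 was at 12.1, 13.02 and 10.6 CPM in the siNC libraries, 8.19, 7.76 and 8.72 CPM in siZIP7_1 and 13.3, 12.9 and 12.6 CPM in siZIP7_2. It fell with siZIP7_1, while the siZIP7_2 and siNC libraries overlapped, with log2 fold changes of -0.53 ± 0.090 with siZIP7_1 and 0.12 ± 0.086 with siZIP7_2 (edgeR, adjusted p = 7.36e-06 and 0.187). ALG5 was at 21.6, 23.4 and 24.9 CPM in the siNC libraries, 28.95, 32.6 and 28.1 CPM in siZIP7_1 and 19.1, 19.3 and 19.8 CPM in siZIP7_2. Its libraries were ordered the other way, siZIP7_1 above and siZIP7_2 below siNC, with log2 fold changes of 0.36 ± 0.069 with siZIP7_1 and -0.26 ± 0.072 with siZIP7_2 (edgeR, adjusted p = 3.49e-05 and 0.00175). A transcript whose exons overlap 19.2% of the exonic length of DPM2, AL157935.1, had at most 0.0992 CPM in any group mean.

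On the cytosolic face, 3 higher and 1 lower of 6 genes passed with siZIP7_1 (beside 34.8% higher and 35.9% lower over all genes) and 1 higher and 4 lower with siZIP7_2 (beside 38.5% higher and 39.3% lower over all genes), with medians of 0.17 and -0.23. The first enzyme of the pathway passed with siZIP7_2 and not with siZIP7_1. DPAGT1, which puts the first N-acetylglucosamine on dolichol phosphate and is the target of tunicamycin (chr11:119096503-119108331, minus strand), was at 79.7, 77.4 and 76.8 CPM in the siNC libraries, 79.97, 80.7 and 72.9 CPM in siZIP7_1 and 31.7, 31.3 and 32.6 CPM in siZIP7_2. Its siZIP7_1 libraries spanned the siNC range, whereas all siZIP7_2 libraries were at less than 33 CPM. The log2 fold changes were -0.0027 ± 0.050 with siZIP7_1 and -1.29 ± 0.054 with siZIP7_2 (edgeR, adjusted p = 0.965 and 1.12e-18), and siZIP7_2 differed from siZIP7_1 by -1.29 ± 0.054 (edgeR, adjusted p = 6.76e-19). Exons of its neighbour C2CD2L cover 21.3% of its exonic length. The log2 fold changes of C2CD2L were 0.31 with siZIP7_1 and 0.24 with siZIP7_2.

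The next sugar is added by the pair of ALG13, which carries the catalytic site, and ALG14, which anchors it in the membrane. ALG14 (chr1:94974407-95072945, minus strand) was at 6.68, 8.12 and 7.94 CPM in the siNC libraries, 3.096, 3.26 and 3.01 CPM in siZIP7_1 and 4.74, 4.87 and 5.11 CPM in siZIP7_2. All siZIP7 libraries lay below siNC, those of siZIP7_1 lowest, with log2 fold changes of -1.28 ± 0.12 with siZIP7_1 and -0.62 ± 0.11 with siZIP7_2 (edgeR, adjusted p = 1.11e-10 and 1.16e-05). ALG13, at 35.9 ± 3.12 CPM in siNC, 38.6 ± 0.417 in siZIP7_1 and 33.5 ± 0.932 in siZIP7_2 (SD, n = 3), passed with neither siRNA. It was called lower with siZIP7_2 without a low-count filter (log2 -0.15, edgeR, adjusted p = 0.0435) and without siNC replicate 1 (log2 -0.15, adjusted p = 0.0487), and higher with siZIP7_1 without siNC replicate 3 (log2 0.19, adjusted p = 0.00979). The mannoses of the cytosolic face are added by ALG1, ALG2 and ALG11. ALG2 rose with each siRNA, from 47.5 ± 1.87 CPM in siNC to 62.2 ± 1.49 in siZIP7_1 and 73.9 ± 3.16 in siZIP7_2 (SD, n = 3), at log2 fold changes of 0.39 ± 0.052 with siZIP7_1 and 0.64 ± 0.052 with siZIP7_2 (edgeR, adjusted p = 1.43e-07 and 5.10e-12).

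ALG1, which adds the first mannose, was at 28.8, 30.3 and 28.6 CPM in the siNC libraries, 36.2, 34.8 and 33.1 CPM in siZIP7_1 and 23.8, 24.7 and 27.3 CPM in siZIP7_2. It was above siNC with siZIP7_1 and below it with siZIP7_2, at log2 fold changes of 0.25 ± 0.063 with siZIP7_1 and -0.21 ± 0.065 with siZIP7_2 (edgeR, adjusted p = 9.44e-04 and 0.00423). ALG11, which adds the last mannoses of this face, was at 7.697, 8.46 and 8.26 CPM in the siNC libraries, 10.998, 11.03 and 10.1 CPM in siZIP7_1 and 7.72, 6.84 and 5.96 CPM in siZIP7_2. It showed the same order of groups, but 1 siZIP7_2 library lay within the siNC range, and the log2 fold changes were 0.40 ± 0.096 with siZIP7_1 and -0.25 ± 0.10 with siZIP7_2 (edgeR, adjusted p = 5.68e-04 and 0.0295). The siZIP7_2 call of ALG11 was lost under DESeq2, both other normalizations and without any one of siNC replicates 2 and 3 and siZIP7_2 replicates 2 and 3, at adjusted p = 0.05802 to 0.219 (edgeR or DESeq2). That of ALG1 was lost with upper-quartile normalization (log2 -0.11, edgeR, adjusted p = 0.129). Other genes overlap 42.3% of the exonic length of ALG1 and 39.7% of that of ALG11. The strand setting of the counting is not given in the sources used here, so reads in those stretches cannot be assigned with certainty. At ALG1, the log2 fold changes with siZIP7_1 and siZIP7_2 were -0.50 and 0.68 for NAGPA and -0.84 and -1.89 for EEF2KMT. At ALG11, those of UTP14C were -0.27 and -0.35. The part of these neighbours in the counts of ALG1 and ALG11 was not tested.

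The 7 genes of the luminal face, which add the last mannoses and the glucose cap, were the step with the lowest median in the siZIP7_2 comparison. With siZIP7_2, 6 of the 7 fell and 1 rose (beside 38.5% higher and 39.3% lower over all genes), with a median log2 fold change of -1.26, beside -0.0018 over all genes tested. With siZIP7_1, 4 fell, none rose and 3 did not pass (beside 34.8% higher and 35.9% lower over all genes), with a median of -0.18. ALG6, which adds the first glucose (chr1:63367575-63438562, plus strand), was at 19.3, 20.02 and 18.9 CPM in the siNC libraries, 12.6, 12.5 and 11.9 CPM in siZIP7_1 and 5.86, 5.69 and 6.15 CPM in siZIP7_2. The 3 groups were fully separate, siNC highest and siZIP7_2 lowest, with log2 fold changes of -0.66 ± 0.074 with siZIP7_1 and -1.72 ± 0.083 with siZIP7_2 (edgeR, adjusted p = 5.11e-09 and 3.14e-17). The log2 difference of siZIP7_2 from siZIP7_1 was -1.06 ± 0.087 (edgeR, adjusted p = 4.15e-12).

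The mannosyltransferases ALG3, which adds the first mannose inside the ER, and ALG9, which adds the following ones, had the same order. ALG3 was at 75.3 ± 0.973 CPM in siNC, 59.6 ± 1.57 in siZIP7_1 and 31.3 ± 1.09 in siZIP7_2 (SD, n = 3), with log2 fold changes of -0.34 ± 0.049 with siZIP7_1 and -1.27 ± 0.052 with siZIP7_2 (edgeR, adjusted p = 5.66e-07 and 7.39e-19). ALG9 was at 20.5 ± 0.463 CPM in siNC, 18.2 ± 0.239 in siZIP7_1 and 8.57 ± 0.487 in siZIP7_2 (SD, n = 3), with log2 fold changes of -0.18 ± 0.069 with siZIP7_1 and -1.26 ± 0.076 with siZIP7_2 (edgeR, adjusted p = 0.0226 and 5.92e-15). With siZIP7_1 the change of ALG9 was small, and its call was lost without siNC replicate 1 or 3 or siZIP7_1 replicate 3, with upper-quartile normalization and without a low-count filter, at adjusted p = 0.0518 to 0.0896 (edgeR). ALG8, which adds the second glucose, was at 60.6 ± 1.53 CPM in siNC, 54.2 ± 3.003 in siZIP7_1 and 40.4 ± 4.76 in siZIP7_2 (SD, n = 3), with log2 fold changes of -0.16 ± 0.063 with siZIP7_1 and -0.58 ± 0.064 with siZIP7_2 (edgeR, adjusted p = 0.0238 and 2.65e-09). Its siZIP7_1 call was likewise lost without siNC replicate 2 or 3 or siZIP7_1 replicate 1 or 3, at adjusted p = 0.0763 to 0.105 (edgeR), whereas its siZIP7_2 call held in every alternative run.

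ALG10 and ALG10B, near-identical copies of the enzyme that adds the last glucose, had few reads. ALG10 was at 2.58, 3.18 and 3.49 CPM in the siNC libraries, 3.17, 3.26 and 3.42 CPM in siZIP7_1 and 0.854, 1.12 and 1.31 CPM in siZIP7_2. ALG10B was at 3.52, 4.21 and 5.02 CPM in the siNC libraries, 3.64, 4.02 and 3.33 CPM in siZIP7_1 and 2.29, 2.895 and 1.65 CPM in siZIP7_2. Both were lower in all siZIP7_2 libraries than in any siNC library, with log2 fold changes of -1.49 ± 0.19 and -0.88 ± 0.17 (edgeR, adjusted p = 3.87e-08 and 3.51e-05), and neither passed with siZIP7_1 (0.094 ± 0.15 and -0.22 ± 0.16). Because reads that match both copies could be split or dropped in counting, the value of each copy alone is uncertain. The transcript AC046130.1 overlaps 42.2% of the exonic length of ALG10 and had at most 0.0226 CPM in any group mean. Its part in the ALG10 counts was not tested.

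ALG12, which adds a mannose to the upper arm (chr22:49900229-49918458, minus strand), was the gene of this step that rose with siZIP7_2. It was at 21.8, 20.1 and 21.003 CPM in the siNC libraries, 19.5, 19.3 and 18.95 CPM in siZIP7_1 and 26.04, 25.9 and 27.8 CPM in siZIP7_2. The siZIP7_2 libraries lay above all others and the siZIP7_1 libraries just below siNC, with log2 fold changes of -0.13 ± 0.066 with siZIP7_1 and 0.34 ± 0.065 with siZIP7_2 (edgeR, adjusted p = 0.0879 and 2.62e-05). ALG12 lies head to head with CRELD2, which encodes an ER protein induced by ER stress. CRELD2 and the transcript AL671710.1 together overlap 42.1% of the exonic length of ALG12, and the share of each was not separated. AL671710.1 was at 0.46 CPM in siNC, 0.42 in siZIP7_1 and 0.50 in siZIP7_2 (means of 3 libraries). CRELD2 was at 23.6 ± 0.183 CPM in siNC, 31.5 ± 1.14 in siZIP7_1 and 31.6 ± 1.26 in siZIP7_2 (SD, n = 3). The log2 fold changes of CRELD2 were 0.41 and 0.42 (edgeR, adjusted p = 6.05e-07 and 4.17e-07). Without strand, reads from the shared stretch cannot be told apart, and the part of CRELD2 in the ALG12 counts was not tested.

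Promoter windows, 250 bases before to 50 after each RefSeq start (GRCh38.p14), were searched on both strands for the ER stress element, CCAAT followed after 9 bases by CCACG. Of the 44 genes, 37 had a window. The element was found in 1 of the 37 (2.703%), ALG12, and in 25 of 27305 symbols with a window (0.0916%). Neither the ER stress element II, ATTGG followed after 1 base by CCACG, nor the core of the unfolded protein response element, TGACGTGG, was found in any of the 37, and these letters were in 0.0696% and 0.927% of all symbols with a window. The stretch of ALG12 is shown because it is the match among the 44 genes, and that of HSPA5, the ER chaperone for which this element is best known, for comparison. Each is written in the direction of its gene with 25 bases on each side and the match in capitals. The stretch of ALG12 is chr22:49918529-49918597 (minus strand), with the match 134 bases before the start of ALG12, and on the other strand it lies 80 bases before that of CRELD2. The stretch of HSPA5 is chr9:125241366-125241434 (minus strand), with the match 66 bases before the start.
ALG12: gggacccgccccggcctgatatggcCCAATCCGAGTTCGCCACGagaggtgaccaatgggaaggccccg
HSPA5: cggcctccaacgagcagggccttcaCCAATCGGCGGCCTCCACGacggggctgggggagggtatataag

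A match of letters in a window describes the sequence and says nothing about binding of a factor in these cells.

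**Figure D3:**
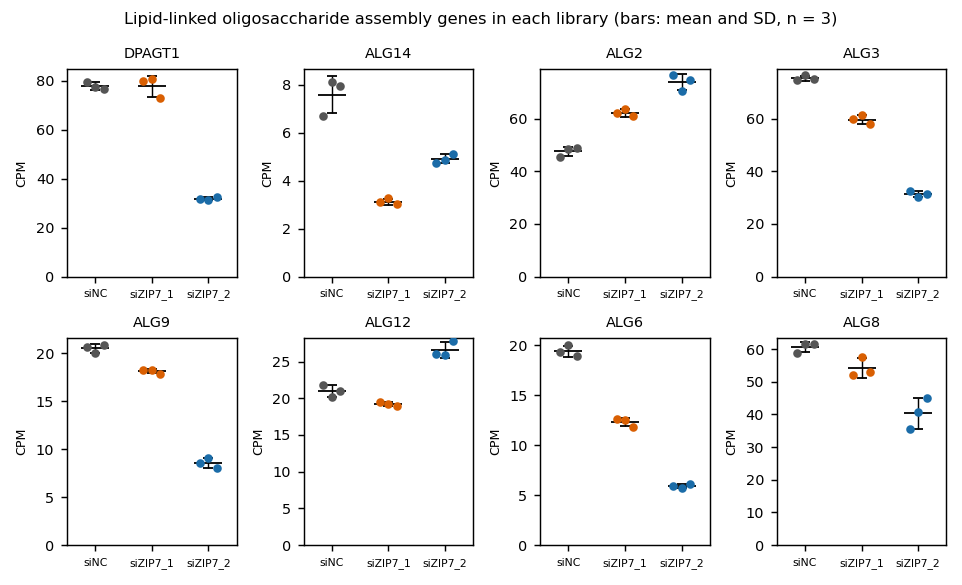
CPM (vertical axis, from 0) of 8 genes of lipid-linked assembly in each library of siNC, siZIP7_1 and siZIP7_2; points are libraries, and bars the mean and SD of 3. DPAGT1, ALG3, ALG9, ALG6 and ALG8 are lowest in siZIP7_2, ALG14 is lowest in siZIP7_1, and ALG2 and ALG12 are highest in siZIP7_2.

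Of the oligosaccharyltransferase subunits, DAD1 had the largest change, a rise with siZIP7_1, and the log2 fold changes of the other 8 lay between -0.37 and 0.25. With siZIP7_1, 3 higher and 4 lower of 9 genes passed (beside 34.8% higher and 35.9% lower over all genes), and with siZIP7_2 2 higher and 2 lower (beside 38.5% higher and 39.3% lower over all genes), with medians of -0.068 and -0.035. Per exonic length, the most abundant subunit transcript in siNC was RPN2, at 205 ± 2.36 RPKM (CPM per kilobase of exonic length, SD, n = 3). It was followed by DAD1 at 95.5 ± 3.42, DDOST at 87.96 ± 1.801 and RPN1 at 59.3 ± 1.41 RPKM. The catalytic STT3B and STT3A were at 48.8 ± 1.28 and 43.9 ± 0.578 RPKM, on either side of OSTC at 45.6 ± 2.67, and the range of mean ± SD of OSTC overlapped those of both. The oxidoreductase subunits were lowest, with MAGT1 at 33.8 ± 2.52 and TUSC3 at 10.4 ± 0.488 RPKM.

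DAD1, a small subunit shared by all forms of the complex (chr14:22564905-22589269, minus strand), was at 75.99, 80.3 and 75.2 CPM in the siNC libraries, 146, 152 and 149 CPM in siZIP7_1 and 81.9, 75.8 and 85.7 CPM in siZIP7_2. Its siZIP7_1 libraries lay far above the siNC range, and its siZIP7_2 and siNC libraries overlapped. The log2 fold changes were 0.95 ± 0.050 with siZIP7_1 and 0.072 ± 0.051 with siZIP7_2 (edgeR, adjusted p = 3.21e-16 and 0.203), and that between the siRNAs was -0.88 ± 0.050 (edgeR, adjusted p = 1.14e-15). RPN2, one of the ribophorins, was at 585, 579 and 572 CPM in the siNC libraries, 497, 513 and 479 CPM in siZIP7_1 and 679.6, 658 and 689.7 CPM in siZIP7_2. It was below siNC with siZIP7_1 and above it with siZIP7_2, without overlap, at log2 fold changes of -0.22 ± 0.045 with siZIP7_1 and 0.22 ± 0.045 with siZIP7_2 (edgeR, adjusted p = 8.55e-05 and 5.96e-05). RPN1, the other ribophorin, rose with siZIP7_1, and DDOST, a non-catalytic core subunit, rose with siZIP7_2. Their log2 fold changes were 0.25 ± 0.044 with siZIP7_1 and -0.035 ± 0.044 with siZIP7_2 (edgeR, adjusted p = 1.51e-05 and 0.472) for RPN1 and -0.034 ± 0.044 with siZIP7_1 and 0.24 ± 0.044 with siZIP7_2 (edgeR, adjusted p = 0.499 and 1.70e-05) for DDOST. OSTC, a subunit of the complex built on STT3A, passed with neither siRNA (-0.068 and -0.050). The antisense transcript PINK1-AS overlaps 15.7% of the exonic length of DDOST, and the reads there cannot be told apart without strand.

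The complex exists in a form built on STT3A, which glycosylates proteins as they enter the ER, and a form built on STT3B, which can act afterwards and carries MAGT1 or TUSC3. STT3A was at 324, 329 and 320.4 CPM in the siNC libraries, 293, 295 and 275 CPM in siZIP7_1 and 250.1, 247 and 258 CPM in siZIP7_2. It fell with each siRNA, and more with siZIP7_2, at log2 fold changes of -0.17 ± 0.045 with siZIP7_1 and -0.37 ± 0.045 with siZIP7_2 (edgeR, adjusted p = 0.00133 and 2.51e-08). STT3B was at 237, 247 and 249 CPM in the siNC libraries, 205, 228 and 200.1 CPM in siZIP7_1 and 247, 251 and 253 CPM in siZIP7_2. It was lower with siZIP7_1, while siZIP7_2 and siNC overlapped, at log2 fold changes of -0.21 ± 0.049 with siZIP7_1 and 0.032 ± 0.049 with siZIP7_2 (edgeR, adjusted p = 3.54e-04 and 0.556). MAGT1 was at 153, 164 and 177 CPM in the siNC libraries, 138, 149 and 130.3 CPM in siZIP7_1 and 145, 138 and 148 CPM in siZIP7_2. Its levels were below siNC with each siRNA, at -0.24 ± 0.055 with siZIP7_1 and -0.19 ± 0.055 with siZIP7_2 (edgeR, adjusted p = 2.46e-04 and 0.00238), and the siZIP7_2 call was lost with upper-quartile normalization (edgeR, adjusted p = 0.135). TUSC3 was at 53.95, 51.1 and 56.1 CPM in the siNC libraries, 61.4, 64.03 and 57.1 CPM in siZIP7_1 and 51.5, 48.2 and 51.4 CPM in siZIP7_2. It rose with siZIP7_1, and the siZIP7_2 and siNC libraries overlapped, at log2 fold changes of 0.18 ± 0.055 with siZIP7_1 and -0.094 ± 0.056 with siZIP7_2 (edgeR, adjusted p = 0.00516 and 0.124).

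GANAB and MOGS, of the glucosidases that start trimming in the ER, fell with each siRNA. GANAB, the catalytic subunit of glucosidase II (chr11:62624826-62646726, minus strand), was at 789.5, 812 and 785 CPM in the siNC libraries, 413, 410.3 and 399 CPM in siZIP7_1 and 517, 508 and 534 CPM in siZIP7_2. The siZIP7_1 libraries were lowest and the siZIP7_2 libraries lay between them and siNC, with log2 fold changes of -0.96 ± 0.045 with siZIP7_1 and -0.61 ± 0.045 with siZIP7_2 (edgeR, adjusted p = 1.66e-17 and 3.97e-13). PRKCSH, the other subunit of the same enzyme, was at 649.7 ± 21.98 CPM in siNC, 649 ± 13.5 in siZIP7_1 and 579 ± 15.3 in siZIP7_2 (SD, n = 3), and its log2 fold changes were -0.0017 ± 0.046 with siZIP7_1 and -0.17 ± 0.046 with siZIP7_2 (edgeR, adjusted p = 0.976 and 0.00168). The subunits of glucosidase II thus differed in the size of their change, and the siZIP7_2 call of PRKCSH was lost with upper-quartile normalization (edgeR, adjusted p = 0.204). MOGS, glucosidase I, which removes the outermost glucose, was at 145, 149 and 139 CPM in the siNC libraries, 117, 112 and 118 CPM in siZIP7_1 and 102, 94.98 and 96.2 CPM in siZIP7_2. Here siZIP7_2 was lowest and no groups overlapped, with log2 fold changes of -0.32 ± 0.047 with siZIP7_1 and -0.56 ± 0.048 with siZIP7_2 (edgeR, adjusted p = 6.94e-07 and 1.13e-11).

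MAN1B1, the ER mannosidase that marks glycoproteins for disposal, moved the other way. It rose from 132 ± 0.661 CPM in siNC to 176 ± 4.42 in siZIP7_1 and 182 ± 6.77 in siZIP7_2 (SD, n = 3), at log2 fold changes of 0.42 ± 0.046 with siZIP7_1 and 0.46 ± 0.046 with siZIP7_2 (edgeR, adjusted p = 2.68e-09 and 2.58e-10). In all, 1 higher and 2 lower of the 4 genes of ER trimming passed with siZIP7_1 (beside 34.8% higher and 35.9% lower over all genes) and 1 higher and 3 lower with siZIP7_2 (beside 38.5% higher and 39.3% lower over all genes), with medians of -0.16 and -0.36.

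Of the Golgi mannosidases, MAN1A1, MAN1A2, MAN2A1 and MAN2A2 rose with siZIP7_2 (4 of 4, beside 38.5% higher and 39.3% lower over all genes), with a median log2 fold change of 0.31. Against a 1.2-fold change, only the siZIP7_2 call of MAN1A1 was kept, and those of MAN1A2, MAN2A1 and MAN2A2 were lost. With siZIP7_1, 1 higher and 3 lower of the 4 passed (beside 34.8% higher and 35.9% lower over all genes), with a median of -0.26. The fifth, MAN1C1, is left out of these counts. MAN1A1, a Golgi class I mannosidase that removes the outer mannoses (chr6:119177209-119349761, minus strand), was at 14.3, 16.5 and 16.6 CPM in the siNC libraries, 29.1, 30.9 and 27.7 CPM in siZIP7_1 and 30.5, 29.6 and 30.1 CPM in siZIP7_2. All siZIP7 libraries lay above all siNC libraries and those of the siRNAs overlapped, with log2 fold changes of 0.89 ± 0.070 with siZIP7_1 and 0.93 ± 0.070 with siZIP7_2 (edgeR, adjusted p = 2.40e-12 and 7.50e-13). MAN1A2, its paralog, was at 71.4, 71.8 and 78.3 CPM in the siNC libraries, 58.5, 58.02 and 57.1 CPM in siZIP7_1 and 90.01, 85.6 and 94.4 CPM in siZIP7_2. It was lowest with siZIP7_1 and highest with siZIP7_2, at log2 fold changes of -0.35 ± 0.052 with siZIP7_1 and 0.28 ± 0.051 with siZIP7_2 (edgeR, adjusted p = 7.53e-07 and 1.28e-05). MAN1C1, the third member of this class, was barely detected, with 3, 6 and 9 reads in the siNC libraries, 22, 27 and 31 in siZIP7_1 and 27, 24 and 18 in siZIP7_2. These are 0.109, 0.258 and 0.3204 CPM in the siNC libraries, 0.801, 0.927 and 0.973 CPM in siZIP7_1 and 1.05, 0.7896 and 0.692 CPM in siZIP7_2, where 3 reads, the floor used for detection, come to 0.0941 to 0.129 CPM. The fitted log2 fold changes were 1.96 ± 0.35 with siZIP7_1 and 1.86 ± 0.36 with siZIP7_2. It passed the low-count filter through the siZIP7 libraries alone and so had to differ, and these values are a description with no test.

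MAN2A1 and MAN2A2 remove the last mannoses before complex branches are built. MAN2A1 (chr5:109689366-109869625, plus strand) was at 191, 217 and 224 CPM in the siNC libraries, 117, 125 and 117 CPM in siZIP7_1 and 235, 243 and 251 CPM in siZIP7_2. The siZIP7_1 libraries were far below siNC and the siZIP7_2 libraries above it, with log2 fold changes of -0.82 ± 0.053 with siZIP7_1 and 0.21 ± 0.052 with siZIP7_2 (edgeR, adjusted p = 4.15e-14 and 7.57e-04). Between the siRNAs the difference was 1.02 ± 0.053 (edgeR, adjusted p = 1.30e-16). MAN2A2 was at 71.5, 71.8 and 70.3 CPM in the siNC libraries, 66.3, 58.7 and 66.3 CPM in siZIP7_1 and 91.2, 85.7 and 91.2 CPM in siZIP7_2. It had the same order in smaller steps, at log2 fold changes of -0.16 ± 0.053 with siZIP7_1 and 0.33 ± 0.052 with siZIP7_2 (edgeR, adjusted p = 0.00941 and 1.99e-06). Its siZIP7_1 call rested on 1 library and was lost without siZIP7_1 replicate 2 (log2 -0.10, edgeR, adjusted p = 0.08904).

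Of the 7 genes for branching and capping, 3 higher and 2 lower passed with siZIP7_1 (beside 34.8% higher and 35.9% lower over all genes) and 4 higher and 2 lower with siZIP7_2 (beside 38.5% higher and 39.3% lower over all genes), with medians of 0.062 and 0.34. MGAT4A, which adds an extra branch to one arm (chr2:98619106-98731126, minus strand), was at 4.25, 4.47 and 4.73 CPM in the siNC libraries, 14.9, 15.3 and 13.4 CPM in siZIP7_1 and 13.97, 15.6 and 15.99 CPM in siZIP7_2. The 6 siZIP7 libraries lay between 13.4 and 15.99 CPM and far above siNC, with log2 fold changes of 1.69 ± 0.097 with siZIP7_1 and 1.76 ± 0.097 with siZIP7_2 (edgeR, adjusted p = 2.03e-15 and 6.68e-16). MGAT4B, which makes the same branch and was the more abundant of the pair, was at 209, 209.7 and 202 CPM in the siNC libraries, 319.8, 311 and 300.3 CPM in siZIP7_1 and 204, 191 and 195 CPM in siZIP7_2. It rose with siZIP7_1, whereas siZIP7_2 and siNC overlapped, at log2 fold changes of 0.59 ± 0.046 with siZIP7_1 and -0.071 ± 0.046 with siZIP7_2 (edgeR, adjusted p = 2.13e-12 and 0.157). MGAT5, which starts the branch bound by galectins and linked to invasion of tumour cells, rose with each siRNA, from 91.9 ± 4.08 CPM in siNC to 124 ± 7.71 in siZIP7_1 and 155 ± 10.5 in siZIP7_2 (SD, n = 3), at log2 fold changes of 0.44 ± 0.055 with siZIP7_1 and 0.75 ± 0.055 with siZIP7_2 (edgeR, adjusted p = 4.17e-08 and 3.52e-13).

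FUT8, which adds fucose to the core of the glycan (chr14:65410592-65744121, plus strand), was at 141, 143 and 145 CPM in the siNC libraries, 64.8, 74.95 and 64.5 CPM in siZIP7_1 and 99.2, 104 and 106 CPM in siZIP7_2. It fell with each siRNA, further with siZIP7_1, and no groups overlapped, at log2 fold changes of -1.07 ± 0.054 with siZIP7_1 and -0.47 ± 0.052 with siZIP7_2 (edgeR, adjusted p = 8.36e-17 and 3.37e-09). B4GALT1, which adds galactose to the branches, was at 163, 172 and 166 CPM in the siNC libraries, 139, 144 and 138 CPM in siZIP7_1 and 239, 215 and 237 CPM in siZIP7_2. It was slightly below siNC with siZIP7_1 and above it with siZIP7_2, at log2 fold changes of -0.25 ± 0.048 with siZIP7_1 and 0.46 ± 0.048 with siZIP7_2 (edgeR, adjusted p = 3.88e-05 and 7.73e-10). MGAT1, which opens complex branching on one arm, and MGAT2, which follows on the other, both passed with siZIP7_2 and not with siZIP7_1. MGAT1 was at 180.1 ± 8.13 CPM in siNC, 188 ± 6.63 in siZIP7_1 and 228 ± 5.17 in siZIP7_2 (SD, n = 3) and rose, by 0.34 ± 0.047 (edgeR, adjusted p = 1.85e-07). MGAT2 was at 126 ± 8.32 CPM in siNC, 127 ± 2.44 in siZIP7_1 and 107 ± 7.47 in siZIP7_2 (SD, n = 3) and fell, with a log2 fold change of -0.23 ± 0.054 (edgeR, adjusted p = 3.84e-04). The transcript AL139099.1 overlaps 91.9% of the exonic length of MGAT2 and was at 1.11 to 1.46 CPM, and its part in the MGAT2 counts was not tested.

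**Figure D4:**
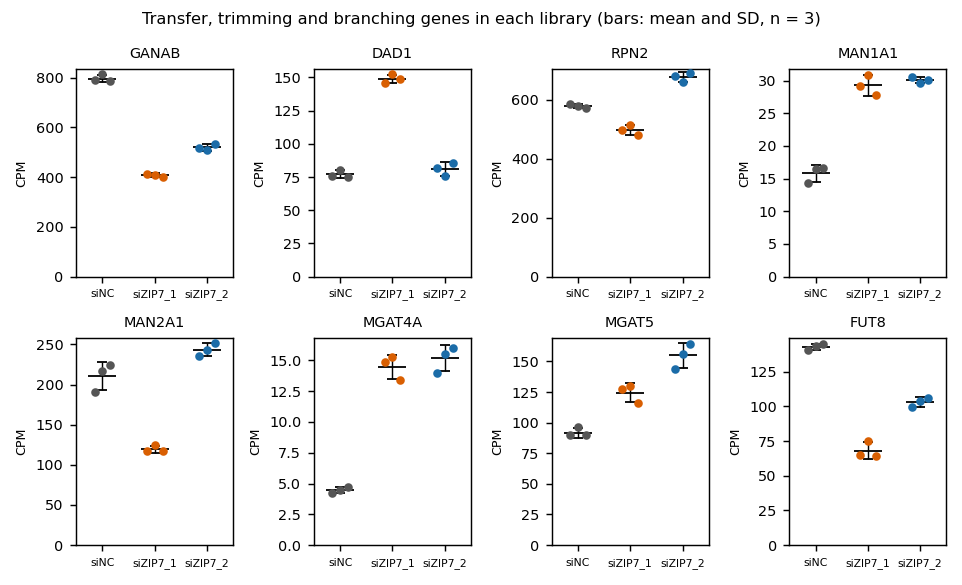
CPM (vertical axis, from 0) of 8 genes of transfer, trimming and branching in each library of siNC, siZIP7_1 and siZIP7_2; points are libraries, and bars the mean and SD of 3. MAN1A1, MGAT4A and MGAT5 are above siNC with each siRNA, GANAB and FUT8 are below it and lowest in siZIP7_1, DAD1 stands out in siZIP7_1, and RPN2 and MAN2A1 lie on opposite sides of siNC.

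The 6 pairs of paralogs named above share a reaction, and their balance can be read within each library, where depth cancels. The balance is the log2 ratio of counts, and groups were compared by a two-sided exact permutation test, which with 3 against 3 libraries cannot go below p = 0.1, so no balance can pass 0.05 and the values are given as a description. The ratio of STT3A to STT3B was 0.45, 0.41 and 0.36 in the siNC libraries, 0.52, 0.37 and 0.46 in siZIP7_1 and 0.019, -0.025 and 0.031 in siZIP7_2. Its siNC and siZIP7_1 ranges overlapped (exact p = 0.4) and the siZIP7_2 libraries lay below both (exact p = 0.1 against siNC, no overlap). In siZIP7_2 the mean count ratio was 1.01 against 1.33 in siNC. These are ratios of reads, and the exonic length of STT3A is the longer. Per exonic length STT3A was below STT3B in both groups, at 43.9 and 48.8 RPKM in siNC and 34.0 and 49.9 RPKM in siZIP7_2. MAGT1 to TUSC3 was 1.499, 1.68 and 1.66 in the siNC libraries, 1.163, 1.22 and 1.19 in siZIP7_1 and 1.496, 1.52 and 1.53 in siZIP7_2. Here siZIP7_1 was the group apart (exact p = 0.1), and siZIP7_2 overlapped siNC (exact p = 0.3).

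Among the Golgi pairs, MAN1A1 to MAN1A2 was -2.32, -2.12 and -2.24 in the siNC libraries, -1.01, -0.91 and -1.04 in siZIP7_1 and -1.56, -1.53 and -1.65 in siZIP7_2, with no overlap of either siRNA with siNC (exact p = 0.1 each) and the highest share of MAN1A1 in siZIP7_1. MAN2A1 to MAN2A2 was 1.42, 1.596 and 1.67 in the siNC libraries, 0.81, 1.08 and 0.82 in siZIP7_1 and 1.37, 1.503 and 1.46 in siZIP7_2, lower in siZIP7_1 (exact p = 0.1, no overlap) and overlapping siNC in siZIP7_2 (exact p = 0.3). MGAT4A to MGAT4B was -5.61, -5.55 and -5.41 in the siNC libraries, -4.43, -4.35 and -4.49 in siZIP7_1 and -3.87, -3.62 and -3.61 in siZIP7_2. MGAT4A stayed the minor transcript throughout, at a mean count ratio of 0.0217 in siNC, 0.0467 in siZIP7_1 and 0.0771 in siZIP7_2, with no overlap between any groups (exact p = 0.1 each). ALG10 to ALG10B was -0.45, -0.403 and -0.52 in the siNC libraries, -0.200, -0.299 and 0.040 in siZIP7_1 and -1.403, -1.36 and -0.33 in siZIP7_2. The exact p was 0.1 for siZIP7_1 and 0.4 for siZIP7_2. In siZIP7_2, replicate 3 lay among the libraries of the other groups and apart from replicates 1 and 2, and the copies cannot be separated with certainty.

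**Figure D5:**
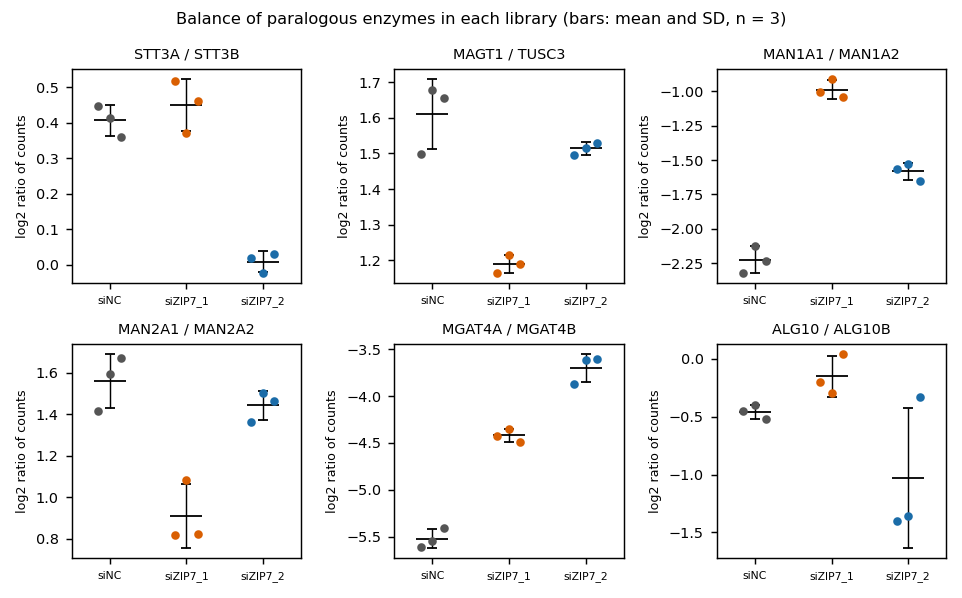
Log2 ratio of the counts of 2 paralogs (vertical axis, which differs between panels and does not start at 0) in each library of siNC, siZIP7_1 and siZIP7_2; points are libraries, and bars the mean and SD of 3. STT3A to STT3B is lowest in siZIP7_2, MAGT1 to TUSC3 and MAN2A1 to MAN2A2 are lowest in siZIP7_1, and MAN1A1 to MAN1A2 and MGAT4A to MGAT4B are higher with each siRNA.

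Set directly against each other, the siRNAs gave different levels for most of the pathway. Between siZIP7_2 and siZIP7_1, 16 of the 44 genes were higher, 21 lower and 7 did not pass, beside 38.1% higher and 40.6% lower over all genes tested, with a median log2 difference of -0.089 beside -0.022. The luminal face was low, with 1 higher and 6 lower of 7 and a median of -0.93. Golgi mannose trimming lay at the other end, with 3 higher and 0 lower of 4 without MAN1C1 and a median of 0.56. This comparison uses the same siZIP7 libraries as those against siNC, so its likeness to them is not a second result. The furthest down were ALG10 (-1.58 ± 0.18), DPAGT1 (-1.29 ± 0.054) and ALG9 (-1.08 ± 0.076), and the furthest up were MAN2A1 (1.02 ± 0.053), B4GALT1 (0.71 ± 0.048), DPM3 (0.65 ± 0.089) and ALG14 (0.65 ± 0.13), with adjusted p (edgeR) from 6.76e-19 to 3.34e-05. The genes that did not pass, DOLPP1, OSTC, MAGT1, MAN1B1, MAN1A1, MAN1C1 and MGAT4A, had differences between -0.10 and 0.068, which does not show that the siRNAs act alike on them. SLC39A7 itself was lower with siZIP7_2 than with siZIP7_1, at a log2 difference of -0.89 ± 0.066 (edgeR, adjusted p = 4.89e-13), and the part of this depth of knockdown in the differences was not tested.

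The assembly enzymes draw on a supply of activated sugars and dolichol, for which a list of 15 other genes was used. Of these, 5 higher and 9 lower passed with siZIP7_1 (beside 34.8% higher and 35.9% lower over all genes) and 6 higher and 6 lower with siZIP7_2 (beside 38.5% higher and 39.3% lower over all genes), with medians of -0.22 and 0.058. The largest change of the list belonged to GFPT2, one of the enzymes that commit sugar to the hexosamine pathway and so to N-acetylglucosamine. GFPT2 was at 105, 98.5 and 102 CPM in the siNC libraries, 4.04, 4.36 and 3.92 CPM in siZIP7_1 and 341, 327 and 319.6 CPM in siZIP7_2. It was far below siNC with siZIP7_1 and far above siNC with siZIP7_2, at log2 fold changes of -4.63 ± 0.069 with siZIP7_1 and 1.69 ± 0.047 with siZIP7_2 (edgeR, adjusted p = 1.80e-28 and 8.24e-23). MPDU1, which is needed for the use of dolichol-phosphate-linked mannose and glucose on the luminal face, was at 64.9, 67.7 and 62.1 CPM in the siNC libraries, 57.9, 59.4 and 62.2 CPM in siZIP7_1 and 26.7, 25.96 and 27.7 CPM in siZIP7_2. It fell with siZIP7_2 without overlap, at log2 fold changes of -0.12 ± 0.052 with siZIP7_1 and -1.28 ± 0.056 with siZIP7_2 (edgeR, adjusted p = 0.04802 and 3.07e-18). The small siZIP7_1 call was lost in several alternatives, DESeq2 among them, at adjusted p = 0.0626 to 0.233 (edgeR or DESeq2).

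Further small subunits of the oligosaccharyltransferase, KRTCAP2, OST4 and TMEM258, gave 0 higher and 2 lower of 3 with siZIP7_1 (beside 34.8% higher and 35.9% lower over all genes) and 0 higher and 3 lower with siZIP7_2 (beside 38.5% higher and 39.3% lower over all genes). TMEM258 was at 38.6, 42.7 and 38.7 CPM in the siNC libraries, 24.5, 25.6 and 24.8 CPM in siZIP7_1 and 31.1, 27.1 and 30.2 CPM in siZIP7_2, and its log2 fold changes were -0.68 ± 0.063 with siZIP7_1 and -0.44 ± 0.063 with siZIP7_2 (edgeR, adjusted p = 1.17e-10 and 3.05e-07). OST4 was at 76.7, 83.004 and 72.1 CPM in the siNC libraries, 56.1, 56.5 and 60.8 CPM in siZIP7_1 and 65.2, 55.8 and 58.2 CPM in siZIP7_2, and its log2 fold changes were -0.42 ± 0.059 with siZIP7_1 and -0.37 ± 0.060 with siZIP7_2 (edgeR, adjusted p = 4.05e-07 and 2.21e-06). Both were below siNC in all 6 siZIP7 libraries. KRTCAP2 had log2 fold changes of 0.028 ± 0.099 with siZIP7_1 and -0.30 ± 0.10 with siZIP7_2 (edgeR, adjusted p = 0.813 and 0.0111).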

How the data were processed

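RNA-seq counts of 9 libraries (3 each of siNC, siZIP7_1 and siZIP7_2) were used. The authors deposited raw read counts per Ensembl gene for each library, without normalization. The submitters' processing notes name Trim Galore 0.4.1, FastQC 0.11.2, STAR, HTSeq 0.6.1 and DESeq2 1.16.1, with no role or order. The genome build and the strand setting are not given in the sources used here. Summary lines of the counter, 10.3 to 14.1% of a library's reads, were left out. Among them, the line of reads marked ambiguous held 2.66 to 2.91% of a library's reads, which are in no gene's count. Whether reads from the overlapping stretches named above were among them was not tested. GENCODE release 29 (GRCh38) held 58275 of the 58395 identifiers and was the source of symbols, positions, exonic lengths and overlaps between genes. Depth was 24153785 to 30454419 gene reads per library, and a count of 3 was taken as the floor of detection, which covers counting error only.

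Tests were run with edgeR 4.0.16 under R 4.3.3 (TMM, filterByExpr, quasi-likelihood test in one fit of the 3 groups with 6 residual degrees of freedom, Benjamini-Hochberg over 16761 genes, threshold 0.05, prior count 0.125). The procedure was also run on simulated counts in which far fewer genes changed than were called here, so no support for the calls is drawn from it. Standard errors are the log2 fold change divided by the square root of F. RPKM divides CPM by exonic length. Paralog ratios used a pseudocount of 0.5 (0.1 as the alternative, which reversed none of them) and an exact permutation test. Alternatives were a replicate block, no low-count filter, normalization by the upper quartile or by DESeq2's size factors, DESeq2 1.42.0 itself, glmTreat against a 1.2-fold change, and each library left out in turn. Promoter windows came from RefSeq (GRCh38.p14) and were given for 37 of the 44 genes.

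Per-library values were given for SLC39A7, the 2 genes of each step with the largest change past the threshold, genes past it in opposite directions, and 6 paralog pairs (29 pathway genes), and for the 2 largest changes of each other list. ALG12 was added after its values were seen. The genes and lists were chosen with earlier results of these data known. Calls of MAN1C1 were not used as tests, since it passed the low-count filter through the siZIP7 libraries alone. Counts of genes past the threshold with both siRNAs were planned but are not reported, since both comparisons use the same siNC libraries.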

Additional observations from a re-analysis of the deposited data

Results flagged for a closer look

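The genes given here passed the threshold in opposite directions with the siRNAs against siNC. The difference between the siRNAs comes from the same libraries and the same fit. Since the genes were chosen for lying on opposite sides of siNC, this difference was bound to be large. Its values and adjusted p are given as a description and are no further test. Among the genes that were higher with siZIP7_1 and lower with siZIP7_2, the log2 difference of siZIP7_2 from siZIP7_1 was -0.96 for DOLK, -0.62 for ALG5, -0.46 for ALG1 and -0.64 for ALG11 (edgeR, adjusted p = 3.64e-13 to 8.06e-07). These act in dolichol phosphorylation, glucose donor synthesis and mannose addition on the cytosolic face. Among those that were lower with siZIP7_1 and higher with siZIP7_2, it was 0.65 for DPM2, 0.45 for RPN2, 0.64 for MAN1A2, 1.02 for MAN2A1, 0.49 for MAN2A2 and 0.71 for B4GALT1 (edgeR, adjusted p = 1.30e-16 to 1.52e-09). Of these, MAN1A2, MAN2A1, MAN2A2 and B4GALT1 act in the Golgi. Against a 1.2-fold change, DOLK alone of these genes stayed past the threshold in opposite directions, and the other genes lost the call with at least 1 siRNA. In other alternatives the siZIP7_2 calls of ALG11 and ALG1 and the siZIP7_1 call of MAN2A2 were also lost, as given above. Other genes also share exons with ALG1 and ALG11. The difference between the siRNAs stayed past the threshold for each gene, which the choice of the genes favoured. The siRNAs also differed in the level of SLC39A7 they left, and the part of that in these differences was not tested.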

How the results depend on the processing

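No alternative changed the sign of a gene past the threshold. Over 2385 log2 fold changes under an alternative (44 pathway genes, SLC39A7 and 8 others), 2253 kept direction and call, 81 lost the call (43 against a 1.2-fold change), 17 gained it (of ALG13, DAD1, DPM1, DPM3, LMAN1, MGAT4B, STT3B and TUSC3 against siNC, and MAGT1 and MAN1B1 between the siRNAs), and 34 changed sign, none of them called. Against a 1.2-fold change (glmTreat) the counts were 9 higher (14 in the main test) and 9 lower (18) with siZIP7_1, and 8 (15) and 13 (20) with siZIP7_2. With siZIP7_2 against siZIP7_1, 13 were lower (21). Of the 16 genes higher there in the main test, ALG2, DDOST, MGAT1, MGAT5 and STT3B lost the call. Over all 16761 genes, in either direction, glmTreat called 8574 (11851 in the main test), 10284 (13038) and 10559 (13187) in these comparisons. The median log2 fold change with siZIP7_2 was -0.065 with DESeq2 size factors, -0.065 with DESeq2, -0.15 without a low-count filter, 0.0088 with upper-quartile normalization and -0.13 to -0.046 with 1 library left out, furthest from the main value without siNC replicate 3. Upper-quartile normalization moved the median of all genes to 0.10 there, so relative to it the pathway was still lower. Leaving out 1 library gave 14 to 16 higher and 16 to 18 lower with siZIP7_1, and 15 to 16 higher and 18 to 22 lower with siZIP7_2.

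Uncalled values that crossed 0 with upper-quartile normalization were DPAGT1 0.023 and PRKCSH 0.025 with siZIP7_1, ALG13 0.0055, MGAT4B 0.036, OSTC 0.057, RPN1 0.071, TUSC3 0.012 and LMAN1 0.022 with siZIP7_2, and DOLPP1 0.0049 between the siRNAs. Without a low-count filter they were STT3B -0.020 with siZIP7_2, and MAN1A1 -0.0080, MAN1B1 -0.0018, OSTC -0.030 and OST4 -0.0041 between the siRNAs. With 1 library left out the ranges were -0.027 to 0.21 for ALG10, -0.030 to 0.045 for DPAGT1, -0.021 to 0.081 for MGAT2 and -0.019 to 0.033 for PRKCSH with siZIP7_1. Between the siRNAs they were -0.00072 to 0.097 for MAGT1, -0.0064 to 0.074 for MAN1A1, -0.28 to 0.012 for MAN1C1, -0.027 to 0.058 for OSTC and -0.019 to 0.094 for OST4. The cause of these shifts was not tested.

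Libraries of the same replicate number correlated by -0.12 to 0.13 after the group means were removed (9 pairs), and those of different numbers by -0.25 to 0.20 (18 pairs), so the numbers do not pair the libraries. With the replicate number as a replicate block, the counts were 14 higher and 18 lower with siZIP7_1 and 15 and 20 with siZIP7_2, and no call of the 44 genes was lost or gained. With 3 libraries per group, depth limits ALG10, ALG10B, ALG14 and above all MAN1C1, whose standard errors were the largest of the 44.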

Other observations

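Beyond the pathway itself, 13 genes of glycoprotein quality control in the ER and 17 of Golgi capping and nucleotide sugar transport were counted. In quality control, 6 higher and 4 lower of 13 passed with siZIP7_1 (beside 34.8% higher and 35.9% lower over all genes) and 5 higher and 2 lower with siZIP7_2 (beside 38.5% higher and 39.3% lower over all genes), with median log2 fold changes of 0.078 and 0.012, beside -0.0069 and -0.0018 over all genes. EDEM1, which hands misfolded glycoproteins to degradation, was at 80.96, 85.6 and 90.3 CPM in the siNC libraries, 195, 200.03 and 184 CPM in siZIP7_1 and 149, 137 and 147 CPM in siZIP7_2. It rose with each siRNA, at log2 fold changes of 1.17 ± 0.051 with siZIP7_1 and 0.75 ± 0.052 with siZIP7_2 (edgeR, adjusted p = 3.58e-18 and 9.72e-14). LMAN1, a lectin that carries glycoproteins out of the ER, was at 141, 145 and 161 CPM in the siNC libraries, 82.9, 93.3 and 79.5 CPM in siZIP7_1 and 142, 136 and 144 CPM in siZIP7_2. It fell with siZIP7_1 and overlapped siNC with siZIP7_2, at log2 fold changes of -0.81 ± 0.057 with siZIP7_1 and -0.085 ± 0.056 with siZIP7_2 (edgeR, adjusted p = 2.25e-13 and 0.165).

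Of the 17 capping and transport genes, 15 entered the tests, and 5 higher and 9 lower passed with siZIP7_1 (beside 34.8% higher and 35.9% lower over all genes) and 4 higher and 11 lower with siZIP7_2 (beside 38.5% higher and 39.3% lower over all genes), with medians of -0.53 and -0.81, beside -0.0069 and -0.0018 over all genes. SLC35A2, the carrier that brings UDP-galactose into the Golgi, was at 37.5, 37.4 and 33.5 CPM in the siNC libraries, 17.95, 16.7 and 17.5 CPM in siZIP7_1 and 9.005, 6.88 and 9.11 CPM in siZIP7_2. The 3 groups were separate, siZIP7_2 lowest, with log2 fold changes of -1.05 ± 0.076 with siZIP7_1 and -2.12 ± 0.085 with siZIP7_2 (edgeR, adjusted p = 4.22e-13 and 4.06e-19). ST6GAL1, a sialyltransferase that caps galactose, was at 8.39, 8.25 and 9.97 CPM in the siNC libraries, 3.205, 2.65 and 2.95 CPM in siZIP7_1 and 2.91, 2.11 and 2.499 CPM in siZIP7_2. All siZIP7 libraries lay below siNC and those of the siRNAs overlapped, with log2 fold changes of -1.60 ± 0.13 with siZIP7_1 and -1.83 ± 0.13 with siZIP7_2 (edgeR, adjusted p = 3.48e-12 and 3.36e-13). Both lists were drawn up with earlier results of these data known, and the genes were picked for having the largest changes of their list.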
